A study of Mus musculus with 6 samples.

Results

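The data concern 4 genes of cholesterol efflux in resident peritoneal macrophages incubated with oxidized LDL or with vehicle: *Abca1*, *Abcg1*, *Apoe* and *Nr1h3*. They were chosen by 1 Ensembl transcript identifier for each gene (ENSMUST00000030010_at, ENSMUST00000024829_at, ENSMUST00000003066_at and ENSMUST00000002177_at), and all 4 identifiers were found among the 81690 transcripts of the deposited table. The table pairs no identifier with a gene name, so the assignment of these 4 to genes was taken as given and was not checked against an annotation here. The cells were washed from the peritoneal cavity of female C57BL/6J mice aged 8 to 12 weeks, with no genetic change named in the labels, and were purified by adherence to plastic. In each of 3 experiments a pool of cells from several mice was divided between 2 wells, and the adherent cells were kept for 24 h with either 25 µg/mL human LDL oxidized with copper sulfate (oxLDL) or the vehicle alone, phosphate-buffered saline (the group labelled unstim, whose agent is given as none). This gave 3 vehicle and 3 oxLDL arrays of the Affymetrix Mouse Exon 1.0 ST type, whose probes lie in the exons of genes.

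Macrophages cannot break down the sterol ring of cholesterol, so the cholesterol that enters with modified lipoproteins must be stored as ester or exported. Export depends on membrane transporters and on acceptor particles outside the cell, and much of it is placed under the liver X receptors (LXR), nuclear receptors that bind oxidized sterols and act on DNA together with the retinoid X receptor. *Abca1* and *Abcg1* encode ATP-binding cassette transporters, *Apoe* encodes a secreted apolipoprotein that takes up lipid from the cell, and *Nr1h3* encodes LXRα. The other 3 genes are known as LXR targets in macrophages. A macrophage that accumulates cholesterol faster than it exports it becomes a foam cell, the lipid-laden cell of the atherosclerotic plaque.

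The element through which LXR and its partner act is a direct repeat of the half-site AGGTCA with 4 bases of any kind between both copies. The promoter of *Abca1* is shown because this gene is a well-known bearer of such an element close to its start site. RefSeq promoter windows of 300 bases (250 before the start site and 50 after it, GRCm38.p6) were present for *Abca1* (1 window), *Apoe* (3 windows) and *Nr1h3* (2 windows), and none for *Abcg1* in the table used. In the *Abca1* window below (chr4:53159846-53160145, minus strand, written 5′ to 3′ along the gene), capitals mark the 16 bases that best match the repeat, which lie at positions -67 to -52 from the start site and read on the opposite strand.
Abca1 promoter: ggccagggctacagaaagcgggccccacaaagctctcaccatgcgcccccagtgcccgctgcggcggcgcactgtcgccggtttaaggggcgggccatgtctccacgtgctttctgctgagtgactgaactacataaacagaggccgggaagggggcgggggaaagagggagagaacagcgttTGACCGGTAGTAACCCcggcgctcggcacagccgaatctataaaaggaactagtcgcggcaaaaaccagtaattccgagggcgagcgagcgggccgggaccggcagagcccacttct

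The best match of each gene is set out next in the direction of the repeat, with the letters that equal the repeat in capitals and all other bases, spacer included, in lower case. They are shown to compare how far the 3 genes with a window carry the element near a start site.
Abca1 best match (chr4:53159947-53159962): gGGTtActaccGGTCA
Nr1h3 best match (chr2:91195151-91195166): AGGTCccggcAcGgCc
Apoe best match, first window (chr7:19699166-19699181): cctTCAcagcAGGgCA

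The *Abca1* element matched 9 of the 12 fixed letters of the repeat, and the best matches in the *Nr1h3* and *Apoe* windows matched 8. Of 32851 promoter windows of this length, 21.9% held a match of at least 9 letters on either strand and 76.9% a match of at least 8. The single half-site AGGTCA was in none of the windows of these genes and in 16.3% of all windows. The *Abca1* window also held the E-box CACGTG at position -147, a GC box (GGGCGG) at positions -163 and -97, and TATAAA at position -29, motifs found in 7.15%, 35.7% and 13.6% of all windows on either strand. These are descriptions of letters in short windows, and elements farther from the start sites lie outside them.

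With oxLDL, *Abcg1* rose 3.92-fold, by a like amount in each experiment. *Apoe* was slightly lower in each experiment and passed the test narrowly, and neither *Abca1* nor *Nr1h3* passed it. *Abca1* passed, with a small rise, in 1 alternative that joined a term for the pairs with quantile normalization. That alternative was chosen after the data were seen, and it called 39.0% of tested transcripts higher and 33.5% lower. The values below are log2 transcript values on each array, as deposited, and a difference of 1 between arrays is a 2-fold change. Levels of different genes are not compared, because each transcript was read by its own probes.

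*Abcg1* encodes a half-transporter that passes cholesterol to mature high-density lipoprotein. Its transcript had values of 10.08, 10.09 and 10.17 on vehicle arrays 1, 2 and 3 and of 12.06, 12.01 and 12.19 on oxLDL arrays 1, 2 and 3. All 3 oxLDL arrays lay far above all 3 vehicle arrays, and the arrays of each group lay close together. The mean log2 value was 10.11 ± 0.05 for vehicle and 12.09 ± 0.09 for oxLDL (SD, n = 3 each). The change was 1.98, 1.92 and 2.02 (log2) in experiments 1, 2 and 3. In the limma fit across all tested transcripts it was 1.97 (standard error 0.09), a 3.92-fold rise with a 95% confidence interval of 3.41 to 4.50 and q = 2.89e-07. Of the 40845 tested transcripts 28 had a larger rise, and within experiments 1, 2 and 3 the transcript ranked 32, 43 and 28 by rise. The rise was far larger than the differences among replicate arrays, and it was at least 3.79-fold with any array left out.

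*Abca1* encodes the full transporter that loads cholesterol and phospholipid onto lipid-poor apolipoprotein A-I, and it is defective in Tangier disease. Its transcript had values of 12.10, 12.11 and 12.56 on vehicle arrays 1, 2 and 3 and of 12.20, 12.33 and 12.38 on oxLDL arrays 1, 2 and 3. The groups overlapped, with vehicle array 3 the highest of the 6. The mean log2 value was 12.26 ± 0.26 for vehicle and 12.30 ± 0.10 for oxLDL (SD, n = 3 each). The difference was 0.090 and 0.22 in experiments 1 and 2 and -0.17 in experiment 3, so the deposited values of the experiments did not share a direction. The fitted change was 0.046 (log2, standard error 0.13, q = 0.314 from limma), with a 95% confidence interval from 0.84-fold to 1.26-fold. A 2-fold change in either direction is outside this interval. Without vehicle array 3 the value was 0.20 (q = 0.086), and without vehicle array 1 or 2 it was -0.029 and -0.028 (q = 0.389 and 0.357).

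The *Abca1* value depended on how array-wide shifts were treated. Against the median difference of the brightest 10% of all transcripts, to which it belongs, *Abca1* was higher by 0.15, 0.22 and 0.060 (log2) in experiments 1, 2 and 3. After quantile normalization of the deposited values its change was 0.15 with q = 0.120. With a random effect for the pairs added it was 0.15 with q = 0.0183 and a 95% confidence interval from 0.0013 to 0.31. *Abca1* was thus called in that setting, but so were many others: 39.0% of tested transcripts were called higher there and 33.5% lower.

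**Figure D1:**
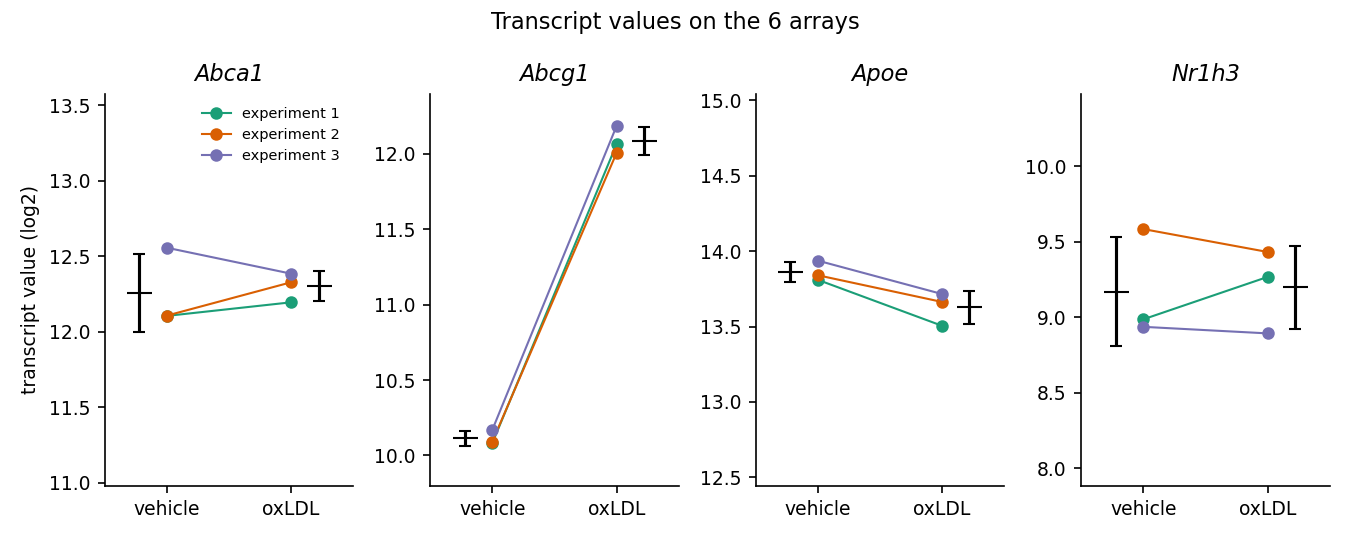
Log2 transcript values of Abca1, Abcg1, Apoe and Nr1h3 on the 3 vehicle and 3 oxLDL arrays, each panel spanning the same range of log2 units. Lines join the arrays of an experiment, and black bars are the group mean and SD (n = 3). The Abcg1 lines climb together from about 10.11 to 12.09, the Apoe lines all slope slightly down, and the Abca1 and Nr1h3 lines run in both directions.

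*Apoe* encodes apolipoprotein E, which macrophages secrete and which can carry cholesterol away from them. Its transcript had values of 13.81, 13.84 and 13.94 on vehicle arrays 1, 2 and 3 and of 13.50, 13.66 and 13.72 on oxLDL arrays 1, 2 and 3. All oxLDL arrays were below all vehicle arrays, by a small margin. The mean log2 value was 13.86 ± 0.07 for vehicle and 13.63 ± 0.11 for oxLDL (SD, n = 3 each), and the difference was -0.30, -0.18 and -0.22 in experiments 1, 2 and 3. The fitted change was -0.23 (log2, standard error 0.09, q = 0.0336 from limma), or 0.85-fold with a 95% confidence interval of 0.74 to 0.98. With the pairs as a random effect on the deposited values q was 0.0137, in a fit that called 38.3% of tested transcripts lower. The call from the fit without a term for the pairs was near its limit. It was lost with Benjamini-Hochberg adjustment in place of Storey's q-value (adjusted p = 0.0873) and with any vehicle array or oxLDL array 1 left out (q = 0.0665, 0.0552 and 0.0927 without vehicle array 1, 2 and 3, and 0.141 without oxLDL array 1).

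The median change over the tested transcripts was -0.10 (log2), so *Apoe* lay 0.13 below it. In the brightest 10% of all transcripts, which hold *Apoe*, *Abca1* and *Abcg1*, the median difference between the oxLDL and vehicle arrays was -0.064, -0.0017 and -0.23 in experiments 1, 2 and 3. Against these medians *Apoe* was lower by 0.24 and 0.18 in experiments 1 and 2 and differed by 0.01 in experiment 3. After quantile normalization of the deposited values the change was -0.17 with q = 0.0508, and after median centring it was -0.17 with q = 0.0624. With quantile normalization and a random effect for the pairs together it was -0.17 with q = 0.0045. In that setting 33.5% of tested transcripts were called lower and 39.0% higher.

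*Nr1h3* encodes LXRα, which senses oxysterols and switches on the efflux genes. Its transcript had values of 8.99, 9.58 and 8.94 on vehicle arrays 1, 2 and 3 and of 9.27, 9.43 and 8.89 on oxLDL arrays 1, 2 and 3. Both arrays of experiment 2 were the highest of their group and both arrays of experiment 3 the lowest, and the groups overlapped throughout. The mean log2 value was 9.17 ± 0.36 for vehicle and 9.20 ± 0.28 for oxLDL (SD, n = 3 each). The difference was 0.28, -0.15 and -0.044 in experiments 1, 2 and 3. The fitted change was 0.029 (log2, standard error 0.18, q = 0.355 from limma), with a 95% confidence interval from 0.77-fold to 1.36-fold. The within-group standard deviation of this transcript was 0.32, and 2.72% of tested transcripts had a larger one. When the pairs entered as a random effect, the interval of the change narrowed to -0.29 to 0.35 (log2). A 2-fold change of the deposited value is outside these intervals. These values hold unadjusted background, which makes fold changes of dim transcripts smaller, and *Nr1h3* lay not far above the median transcript (8.74). Its signal over background was not assessed, so the intervals bound the array value and not the amount of mRNA.

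The spread between arrays differed among the 4 genes. The within-group standard deviation was 0.07 for *Abcg1*, 0.09 for *Apoe* and 0.20 for *Abca1*, against a median of 0.12 over the tested transcripts, and 86.0%, 74.5% and 16.1% of tested transcripts had a larger one. The values of *Abca1* and *Nr1h3* were therefore the less precise of the 4, and their intervals are the wider.

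Of the 4 transcripts, 1 passed q below 0.05 with a higher value and 1 with a lower value, where 10.7% and 30.8% of all tested transcripts did so. The single *Apoe* call is thus of a kind made often in these data. The balance of the background depended on scaling, since after quantile normalization 24.4% of tested transcripts were called higher and 21.6% lower. At the 2-fold threshold that goes with q in the methods of the study, *Abcg1* was 1 call of 280 higher transcripts, or 0.686% of those tested, and none of the 4 was among the 2.45% called lower. The groups did not overlap for *Abcg1* upward, as for 12.7% of tested transcripts, and for *Apoe* downward, as for 32.5%. Transcripts lower in all 3 experiments, as *Apoe* was, made up 46.4% of those tested, and transcripts higher in all 3, as *Abcg1* was, made up 20.3%. In these bulk samples, fewer cells with a transcript and less of it per cell cannot be told apart.

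**Figure D2:**
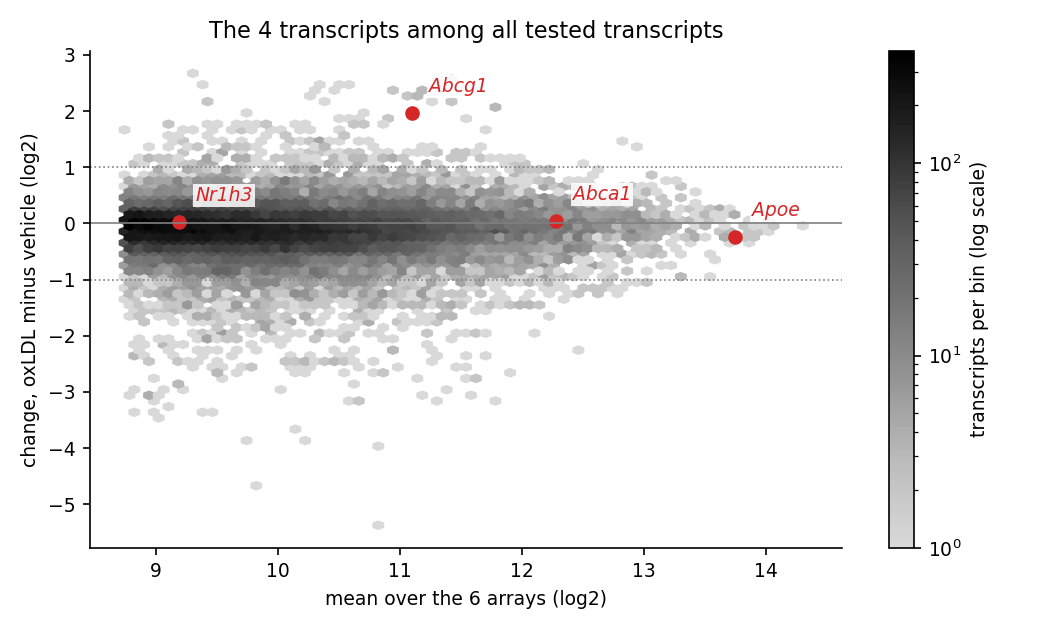
Change with oxLDL (oxLDL minus vehicle, log2) against the mean over the 6 arrays (log2) for the 40845 tested transcripts, binned in grey by number on a log scale, with the 4 genes in red. Dotted lines mark a 2-fold change. Abcg1 stands at 1.97, above nearly all transcripts, and the other 3 genes lie within the main cloud.

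**Figure D3:**
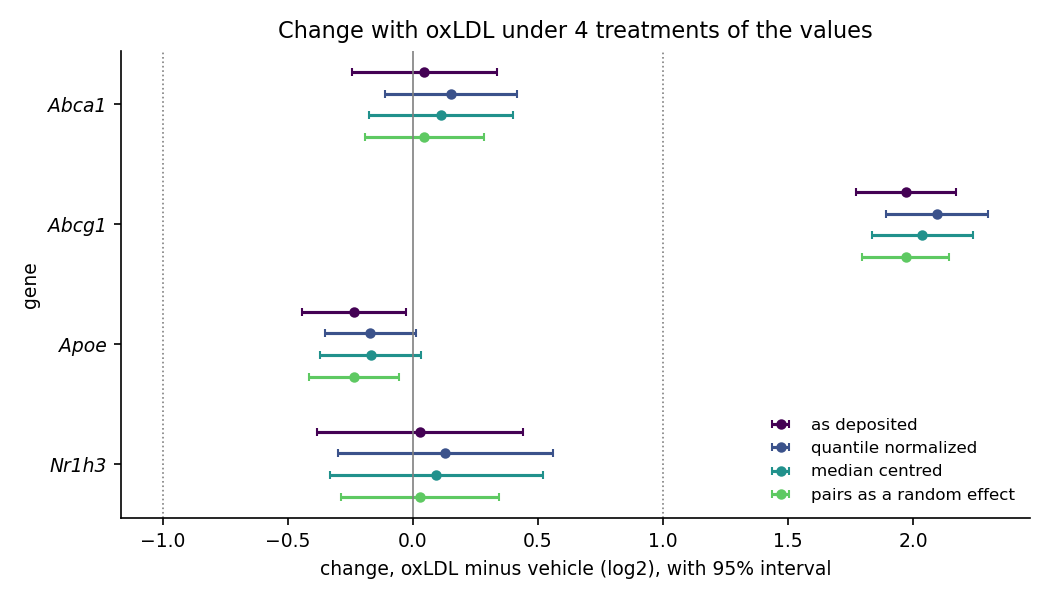
Fitted change with oxLDL (log2, points) and its 95% confidence interval (bars, limma, 3 arrays per group) for the 4 genes from the deposited values, after quantile normalization, after median centring, and from a fit with a random effect for the pairs. The Abcg1 intervals lie beyond the dotted 2-fold line in every setting drawn, while the upper end of the Apoe interval crosses 0 after quantile normalization and after median centring.

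Whether the 4 genes changed by unequal amounts was examined for all 6 pairs, from the log2 difference between both transcripts on each array. The change of *Abcg1* exceeded that of *Abca1* by 1.92 on the log2 scale over the 3 experiments, or 3.80-fold. It exceeded that of *Nr1h3* by 1.94 and that of *Apoe* by 2.21. In each of these 3 pairs the vehicle and oxLDL arrays did not overlap, and the exact permutation test gave p = 0.10 (two-sided, adjusted p = 0.15 over 6 pairs), the smallest p that 3 arrays against 3 allow. With swaps only within the same-numbered pairs the exact test gave p = 0.25 for each difference between genes other than that of *Abca1* and *Nr1h3* (p = 1.0), and 0.25 is the smallest p that 3 pairs allow, so no difference could pass either test. The changes of *Abca1* and *Apoe* differed by 0.28, with values of 0.40, 0.40 and 0.050 in experiments 1, 2 and 3, no overlap between the arrays and the same p. Those of *Apoe* and *Nr1h3* differed by -0.26 (exact permutation test, p = 0.20, adjusted p = 0.24). Those of *Abca1* and *Nr1h3* differed by 0.018, with values of -0.19, 0.37 and -0.13 in the experiments (exact permutation test, p = 1.0). From the fitted values alone, the changes ran in the order *Abcg1*, *Abca1*, *Nr1h3* and *Apoe*. The arrays overlapped for the neighbours *Abca1* and *Nr1h3* and for *Nr1h3* and *Apoe*, and the whole order is a description that no test settled. Background left in the values makes the fold changes of dim transcripts smaller, so the differences and the order hold for the deposited values only.

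The arrays also showed which transcripts moved most like each gene. None of the 4 transcripts had values identical to those of another row. Within 0.1 (log2) on all 6 arrays there were 3 other rows for *Apoe* and 4 for *Nr1h3*, and 0 for *Abca1* and *Abcg1*. Apart from such rows, the transcript most like *Abcg1* was ENSMUST00000139013_at (Pearson's r = 0.9998 over the 6 arrays), which went from a mean of 9.75 with vehicle to 11.70 with oxLDL, a change of 1.95 on the log2 scale. The transcript most like *Apoe* was ENSMUST00000173739_at (r = 0.999), with a change of -0.25, and that most like *Abca1* was ENSMUST00000162705_at (r = 0.995), with a change of 0.021. For *Nr1h3* the highest r was 0.997, with a change of 0.0025. These identifiers were not matched to gene names, so other transcripts of the same 4 genes may be among them. With 6 arrays in 2 groups and 40845 transcripts to choose from, some high values of r arise from the choice alone. The number of transcripts with r above 0.95 was 1169 for *Abcg1*, 263 for *Apoe*, 89 for *Nr1h3* and 86 for *Abca1*.

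Other genes of the efflux pathway, and marker genes with which the macrophage label could be checked, were not analysed here, because 0 of the 81690 identifiers could be paired with a gene name from the gene table used.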

How the data were processed

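RNA from 3 vehicle and 3 oxLDL wells was measured on 6 Affymetrix exon arrays. Per the paper's methods, the authors quantile-normalized the probe measurements with no adjustment for background and then applied PLIER (version not given in the sources used here), using CustomCDF version 15 probe sets of Ensembl release 65 transcripts. The deposited values were taken as log2 from their range (5.95 to 14.42), and the sources used here do not say whether an offset preceded the logarithm. Background left in such values makes the fold changes of dim transcripts smaller. All 6 array columns were used. Detection calls were not part of this work, and the test took transcripts whose mean exceeded the median transcript (8.74), 40845 of 81690, and all 4 genes passed.

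The fit was limma 3.58.1 in R 4.3.3 (empirical Bayes, prior proportion 0.1, no covariate, two-sided), with q-values by Storey's method over all tested transcripts and a threshold of 0.05. Storey's q multiplies by the estimated unchanged proportion (0.385), so a q can be smaller than its p. The script was tested on simulated arrays with independent noise, no pairs and no array-wide shift. The planted changes were larger than those of *Apoe* and *Abca1* here, so that test does not bear on calls as small as these. Differences between genes were tested by exact permutation, and motifs, tables and figures were made in Python 3.11.15 with matplotlib 3.10.9.

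Replicate numbers in the labels name experiments in which both wells came from 1 pool of cells. Deviations from the group means correlated at 0.51, 0.67 and 0.58 between same-numbered arrays, and between -0.53 and -0.04 otherwise. Deviations cancel out within a group, so the negative range follows in part from the positive values and is no separate evidence. With the design in the methods and the positive values, the numbers were taken to pair the arrays. The methods name no term for the pair, and the fits with it are alternatives. Array medians lay between 8.64 and 8.80, and 3 arrays per group limit the precision. The genes, lists and motifs were chosen with earlier results of these data known. The genes named are the 4 chosen and, for each, the transcript with the highest Pearson's r over the arrays among those not within 0.1 (log2) of it on all arrays, with at most 2 identifiers printed in a direction, so that for *Nr1h3* is left out. The alternatives were the pair as a fixed block or a random effect, Benjamini-Hochberg adjustment, 3 other filters, an offset of 16, quantile normalization, median centring, a variance trend with robust estimation, and each array or experiment left out. The pair as a random effect combined with quantile normalization was chosen after the data were seen.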

Additional observations from a re-analysis of the deposited data

How the results depend on the processing

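*Abcg1* kept its direction and its call under all 20 alternatives, with changes from 1.92 to 2.10 (log2). *Apoe* was lower under all 20, from -0.28 to -0.17, and was called under 10 of them. It was not called with Benjamini-Hochberg adjustment (-0.23), quantile normalization (-0.17) or median centring (-0.17), with 4 of the 6 single arrays left out (-0.26 to -0.17 without these 4, and -0.28 to -0.17 over all 6), or with any experiment left out (-0.26 to -0.20, q = 0.0535 to 0.291). *Abca1* changed sign with arrays or experiments left out (-0.041 to 0.20). It was called once, with the pair as a random effect and quantile normalization together, at 0.15 with q = 0.0183 and a 95% interval from 0.0013 to 0.31. In that setting 39.0% of tested transcripts were called higher. *Nr1h3* also changed sign with arrays or experiments left out (-0.098 to 0.24) and was called under none of 19 alternatives. It was not among the brightest 25% of transcripts, so that setting gave it no value. The difference between the changes of *Abca1* and *Nr1h3* lay between -0.26 and 0.28 with arrays or experiments left out, and the other 5 differences between genes kept their sign throughout. The cause of these losses and reversals was not tested.

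The replicate block left each change as it was, at 0.046, 1.97, -0.23 and 0.029 for *Abca1*, *Abcg1*, *Apoe* and *Nr1h3*. As a fixed term, with 2 residual degrees of freedom, limma gave all transcripts 1 common variance, as it did without experiment 2, so those q-values say little about a single gene. As a random effect on the deposited values it gave q = 0.252 for *Abca1*, 0.0137 for *Apoe* and 0.296 for *Nr1h3*, and the pairing changed no call of these 4 genes there. On quantile-normalized values the random effect moved *Abca1* from q = 0.120 to 0.0183 and *Apoe* from 0.0508 to 0.0045, so both were called. The same step raised the share of tested transcripts called higher from 24.4% to 39.0% and that called lower from 21.6% to 33.5%. In the fit of the deposited values without a term for the pairs, 280 of all tested transcripts were called higher and 1001 lower at 2-fold. With no fold-change threshold 4369 and 12587 were called, and 642 were lower among the brightest 25%, where fewer transcripts were tested. Signal over background was not assessed.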
